A study of Homo sapiens with 3 samples.

Results

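YAP1 and its paralogue WWTR1, which encodes TAZ, the DNA-binding partner TEAD1 and 7 target or feedback genes (CTGF, CYR61, ANKRD1, AMOTL2, AXL, LATS2 and AJUBA) were examined in RNA-seq counts of PANC-1 cells. These 10 genes were chosen from known roles in the Hippo pathway and on counts of the same 3 libraries, in which YAP targets had already been seen to be low with TAM, so that their values are a description and carry no test. All 10 were found by symbol among the 51136 genes of the count table.

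In the Hippo pathway, the kinases STK3 and STK4 activate LATS1 and LATS2, which phosphorylate YAP and TAZ and keep them in the cytoplasm. Unphosphorylated YAP and TAZ enter the nucleus and bind TEAD proteins at target genes such as CTGF and CYR61. Some targets, AMOTL2 and LATS2 among them, encode inhibitors of YAP and thus form a feedback loop. In pancreatic ductal carcinoma, YAP is known for its part in tumor growth and stromal signalling. mRNA counts measure neither phosphorylation nor location of YAP, both of which the pathway acts on.

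PANC-1 is an established human pancreatic ductal carcinoma cell line. One library came from control cells, for which the labels name no agent and no vehicle, another from cells given 200 μM Ginsenoside Rg3 (Rg3), a ginseng saponin, and the last from cells given 50 μM tamoxifen (TAM), an antiestrogen that the study also used as a PKC inhibitor, each for 24 h. The comparisons ask how gene expression differed after either agent given alone. With 1 library per group, no difference has a replicate check, a single culture cannot be told apart from a treatment, and no p-value is given. Intervals below are exact 95% intervals (Clopper-Pearson for ratios, Poisson for levels) and cover counting error only.

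Reads counted on genes came to between 11300766 and 12861693 per library. TMM scaling moved log2 fold changes by -0.14 with Rg3 and by 0.21 with TAM relative to division by library totals. Fold changes went with the base composition of transcripts: over 11693 genes with at least 50 counts, Spearman's rho between the log2 fold change and GC content was -0.81 with Rg3, and over 11118 genes it was 0.50 with TAM, where rho with transcript length was -0.45. These correlations are across genes, which are not independent replicates. Values with this trend removed therefore stand beside the members below. The shares of all genes past 1.5-fold that follow are those before its removal. The 7 epithelial and ductal markers summed to 2487, 1152 and 2897 CPM (counts scaled to the TMM library size) in the control, Rg3 and TAM libraries, most of it KRT8 and KRT18. Within this list the TAM library went both ways against control, with KRT18 at 11216 and 13162 counts and KRT7 at 248 and 345, but KRT19 at 665 and 181 and CDH1 at 76 and 5. EPCAM had only 26, 26 and 8 counts in the 3 libraries. The 4 acinar markers had no read in any library, and the 3 endothelial markers together had 50 to 55 counts, nearly all of them KDR. The 3 leukocyte markers had 97, 46 and 38 counts in the control, Rg3 and TAM libraries, nearly all of them CD14. The 4 fibroblast markers summed to 162, 70.4 and 74.5 CPM in the same order, nearly all of it COL1A1, while DCN had 0 or 1 count. COL1A1 thus stood lower in both treated libraries, and its relation to the members was not tested. In bulk RNA, fewer cells that use a gene and less RNA of it per cell cannot be told apart.

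Promoter sequence is printed for CTGF, ANKRD1, AMOTL2 and YAP1, the 4 genes called lower past 1.5-fold with TAM that hold TEAD letters before a start. For ANKRD1 that call rested on 12 and 3 counts in the control and TAM libraries, with a counting interval that included 0. For YAP1 it was lost with the GC and length trend removed. The letters GGAATG, or CATTCC on the other strand, are the core that TEAD proteins bind. RefSeq windows of 300 bases, 250 before to 50 after a start (GRCh38.p14), were found for 8 of the 10 genes (12 windows), and not for TEAD1 and CYR61. The core occurred in 7 of the 12 windows, against 14.0% of all 35116 windows. Because the genes were chosen from known roles in the Hippo pathway, a share above that of all windows is not a test. The CTGF window, at chr6:131951323-131951622 on the minus strand, held 3 copies, which 0.128% of all windows did, and the ANKRD1 window, at chr10:90921038-90921337 on the minus strand, held 2, which 1.37% did. In the lines below, read 5′ to 3′ on the strand of the gene, capitals mark the core.
CTGF, 186 to 73 bases before the start: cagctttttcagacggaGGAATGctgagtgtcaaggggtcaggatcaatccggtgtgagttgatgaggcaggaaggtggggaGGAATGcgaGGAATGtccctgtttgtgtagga
ANKRD1, 237 to 106 bases before the start: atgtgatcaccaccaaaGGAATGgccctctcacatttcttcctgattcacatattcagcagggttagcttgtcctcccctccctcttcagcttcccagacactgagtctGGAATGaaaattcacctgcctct
AMOTL2, second start, 86 to 47 bases before it: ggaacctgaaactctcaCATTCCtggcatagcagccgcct
YAP1, 179 to 140 bases before the start: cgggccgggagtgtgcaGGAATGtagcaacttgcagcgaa
The copies in CTGF began 169, 104 and 95 bases before the start, and those in ANKRD1 220 and 128 bases before it. AXL and AJUBA, which were not lower with TAM, held 1 copy each, at their second start. LATS2 held 1 after its start, while both windows of WWTR1 held none. The pattern TGANTCA, with N any base and thus a loose form of the AP-1 core, reads the same on either strand. It was found in 1 of the 12 windows, that of ANKRD1, where it reads tgattca, against 7.71% of all windows. A match of letters is a description and not a bound site.

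Per kilobase of the longest transcript, CYR61 had the highest level of the 10 genes in each library. In the control library the scaled levels, in CPM per kilobase, were 358 for CYR61, 64.9 for AXL, 61.6 for CTGF, 37.9 for WWTR1, 37.8 for AMOTL2, 18.5 for YAP1, 8.91 for AJUBA, 5.66 for TEAD1, 2.99 for LATS2 and 0.528 for ANKRD1. In that order, AXL (62.8 to 67.1) and CTGF (58.7 to 64.6) overlapped in their counting intervals, as did WWTR1 and AMOTL2, and the other neighbours did not. With Rg3, CTGF (53.7) stood above AXL (39.1) on this scale, and TEAD1 (9.28) reached the level of AJUBA (8.93). With TAM, AXL (66.3) stood above WWTR1 (32.2) and CTGF (25.3), and TEAD1 (1.92) stood well below AJUBA (10.7). Longest transcripts stand in for the isoforms in use, which the counts do not show.

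**Figure D1:**
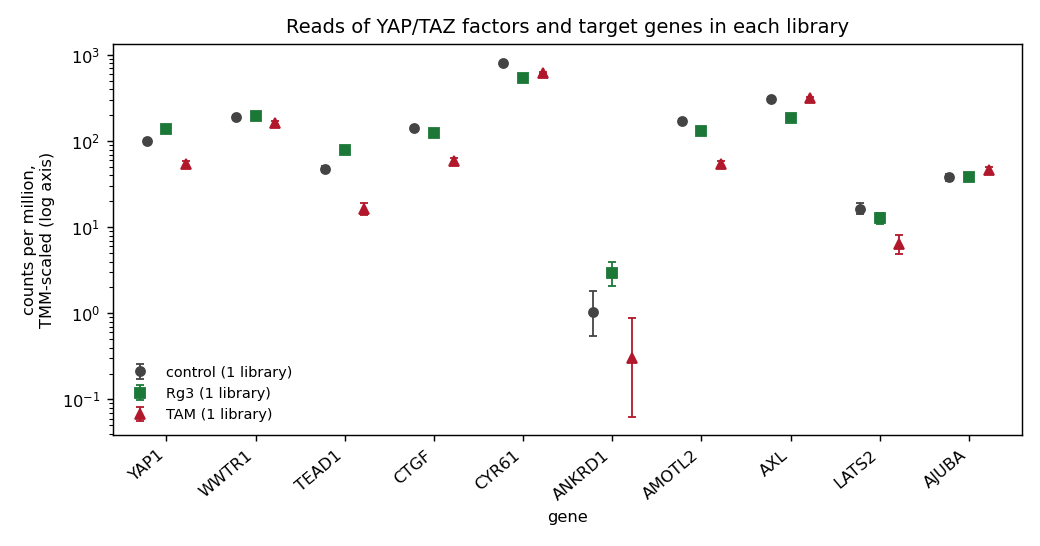
Scaled CPM (TMM, log axis) of each of the 10 genes in the control, Rg3 and TAM libraries, 1 library each, with exact 95% Poisson intervals that cover counting error only. CYR61 lies highest and ANKRD1 lowest in each library. For YAP1, WWTR1, TEAD1, CTGF, ANKRD1, AMOTL2 and LATS2 the TAM point lies below those of the control and Rg3 libraries.

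In the TAM library, 6 of the 10 genes were lower than in the control library past 1.5-fold (TEAD1, YAP1, CTGF, AMOTL2, LATS2 and ANKRD1) and 0 were higher. ANKRD1, with 12 and 3 counts in the control and TAM libraries, had a counting interval that included 0. Without it, 5 were lower past 1.5-fold with an interval that left out 0. Over all 16079 genes compared, which had at least 10 counts in either library, 23.5% were lower past 1.5-fold and 17.4% were higher. The median log2 fold change of the 10 genes was -1.09, against -0.02 over all genes. The range ran from -1.79 for ANKRD1 to 0.27 for AJUBA, so that the genes did not move as 1 group. CYR61, AXL, WWTR1 and AJUBA, 3 of them among the more abundant of the 10, stayed within 1.5-fold. With the GC and length trend removed 6 genes were again lower, CYR61 in place of YAP1, and the median was -0.70. Below CYR61, the least lowered of these 6, lay 14.9996% of all genes on that scale. Because the 10 genes were picked with the TAM counts known, the count of 6 is not evidence of its own.

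In the Rg3 library, TEAD1 and ANKRD1 were higher than in the control library past 1.5-fold, and CYR61 and AXL were lower. Over all 16487 genes compared, 25.0% were higher and 19.3% lower, so that 2 of 10 in either direction lay close to the shares of the whole table. The median of the 10 genes was -0.10, against 0.04 over all genes. Of these 4 calls, that of CYR61 lay just past the limit, at 1.51-fold lower, and that of ANKRD1 rested on few reads. With the GC and length trend removed, ANKRD1 alone stayed past 1.5-fold.

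The Rg3 and TAM libraries were also set against each other, although the agents were given at different doses. Rg3 stood above TAM past 1.5-fold for YAP1, TEAD1, CTGF, ANKRD1, AMOTL2 and LATS2, 6 of the 10, where 35.1% of 16493 genes compared were higher. Only AXL was lower past that limit, where 30.0% of the genes were. The median log2 fold change of Rg3 over TAM was 1.05 for the 10 genes and 0.08 over all genes. Removal of the GC and length trend left 5 higher, without YAP1 (0.50), and made WWTR1 (-0.85) the 1 lower in place of AXL (-0.36), with a median of 0.75. On that scale 90.0% of all genes lay below TEAD1, the least raised of the 5, and 9.08% lay below WWTR1. This comparison uses the same TAM library as the one against control and is not a second observation of it.

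**Figure D2:**
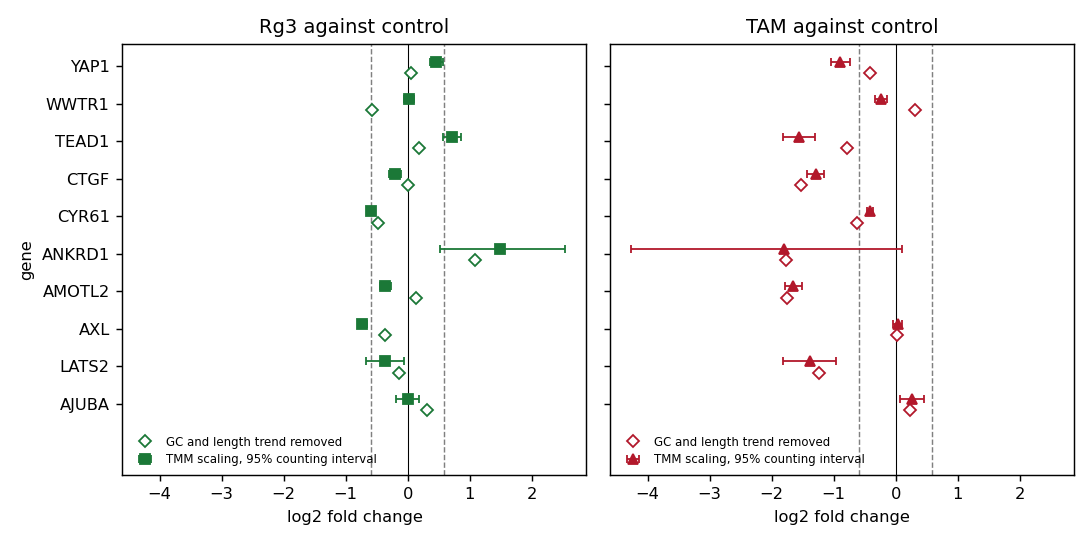
Log2 fold change of each gene against the control library with Rg3 (left) and TAM (right). Filled points are TMM-scaled ratios with 95% counting intervals, open diamonds are the values after removal of the GC and length trend, and dashed lines mark 1.5-fold. With TAM the diamonds of CTGF, AMOTL2, LATS2 and ANKRD1 stay left of the dashed line and that of YAP1 does not, and with Rg3 the diamond of TEAD1 lies near 0.

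YAP1 and WWTR1 encode the coactivators themselves, which bind DNA only through partners such as TEAD. YAP1 (ENSG00000137693.13, chr11:102110461-102233423, plus strand, GRCh38) had 1149, 1981 and 537 counts in the control, Rg3 and TAM libraries. The Rg3 library was thus the highest and the TAM library the lowest. Against control, the log2 fold change was 0.46 with Rg3 (0.35 to 0.57), under 1.5-fold but past it with library totals (0.60), and -0.89 with TAM (-1.04 to -0.74), or 1.85-fold lower. With the GC and length trend removed these values were 0.06 and -0.41, and the TAM value was then within 1.5-fold. The longest YAP1 transcript has a GC content of 43.5%, below the median of 48.5% over the genes compared, and 10.5% of its 50-base stretches recur in the antisense transcript AP000942.2 or the pseudogene YAP1P1. YAP1P1 had 9, 16 and 4 counts. Since use of strand in counting is not given, reads of a gene and of its antisense partner cannot be told apart, here and for WWTR1, CTGF and AXL.

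WWTR1 (ENSG00000018408.14, chr3:149517235-149736714, minus strand) had 2191, 2788 and 1614 counts in the control, Rg3 and TAM libraries. Its scaled levels, 191, 194 and 162 CPM, lay closer together than those of YAP1. Its log2 fold change was 0.02 with Rg3 (-0.06 to 0.10) and -0.23 with TAM (-0.33 to -0.14), and neither passed 1.5-fold. The sign of both depended on the processing, since removal of the trend gave -0.57 with Rg3 and 0.31 with TAM. Within a library, where no scaling between libraries enters, WWTR1 had 1.91 reads for each YAP1 read in the control library (1.77 to 2.05), 1.41 with Rg3 (1.33 to 1.49) and 3.01 with TAM (2.72 to 3.32). The balance of reads was thus furthest toward TAZ with TAM, and the 3 counting intervals did not overlap. Both transcripts are low in GC (40.9% for WWTR1) and of similar length (5030 and 5398 bases). The antisense gene WWTR1-AS1, which overlaps exons of WWTR1, had 8, 4 and 6 counts.

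TEAD1 encodes 1 of the 4 TEAD transcription factors. TEAD1 (ENSG00000187079.16, chr11:12674591-12944483, plus strand) had 551, 1133 and 162 counts in the same order. No other member with over 100 control counts differed as much between the treated libraries, with a scaled ratio of Rg3 over TAM of 4.83 (4.10 to 5.73). Against control, its log2 fold change was 0.71 with Rg3 (0.57 to 0.86) and -1.56 with TAM (-1.82 to -1.30). Its longest transcript is the longest of the 10 genes, at 8477 bases, with 41.3% GC, a composition and length at which genes in general stood high in the Rg3 library and low in the TAM library. With the trend removed the values were 0.19 and -0.79, so that the Rg3 call was lost and the TAM call was kept.

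None of the 3 other TEAD genes had the order of scaled levels of TEAD1, which was highest with Rg3 and lowest with TAM. TEAD2 had 633, 376 and 710 counts, a log2 fold change of -1.08 with Rg3 and 0.37 with TAM. TEAD3 (310, 260 and 284 counts) and TEAD4 (319, 377 and 354) stayed within 1.5-fold in both libraries, TEAD3 with Rg3 only just, at a fold of 0.669. As a share of all reads on TEAD1 to TEAD4, TEAD1 made up 30.4% in the control library (28.3% to 32.6%), 52.8% with Rg3 (50.7% to 54.9%) and 10.7% with TAM (9.21% to 12.4%). Summed over the 4 genes the scaled level was 158, 149 and 152 CPM, while the make-up of these reads differed. Per kilobase, the share of TEAD1 was 10.5%, 22.4% and 3.11%, and TEAD2 had the largest share in the control and TAM libraries and TEAD4 with Rg3. With the trend removed, TEAD2 was within 1.5-fold with Rg3 (-0.51) and with TAM (-0.02). Of the VGLL genes, whose proteins compete with YAP for TEAD, VGLL4 had 784, 974 and 715 counts and changes of -0.01 and 0.07. VGLL1 and VGLL2 had no read in any library, which allows up to 3 counts each by a one-sided limit, and VGLL3 had 20, 41 and 11.

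CTGF and CYR61, also called CCN2 and CCN1, encode secreted matricellular proteins of the same family and are the targets most often used to read out YAP. CTGF (ENSG00000118523.5, chr6:131948176-131951373, minus strand) had 1654, 1807 and 588 counts in these libraries. The control and Rg3 libraries lay close together and the TAM library stood apart. Its log2 fold change was -0.20 with Rg3 (-0.30 to -0.10) and -1.29 with TAM (-1.42 to -1.15), or 2.44-fold lower. Removal of the trend left the TAM value no smaller, at -1.52, and put the Rg3 value at 0.0035. Of the genes compared, 6.60% had a lower TAM fold change than CTGF, and 2.55% did with the trend removed.

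CYR61 (ENSG00000142871.16, chr1:85580761-85583962, plus strand) had the most reads of the 10 genes, with 9421, 7823 and 6121. Both treated libraries stood below control, by a log2 fold change of -0.59 with Rg3 (-0.64 to -0.55) and -0.42 with TAM (-0.46 to -0.37). The first of these was past 1.5-fold and the second was not, and with the trend removed this was the other way round (-0.48 and -0.62). CTGF and CYR61 transcripts are alike in length (2339 and 2290 bases) and in GC content (51.5% and 50.3%), so that their ratio is less exposed to that trend. CYR61 had 5.70 reads per CTGF read in the control library (5.41 to 6.01), 4.33 with Rg3 (4.11 to 4.56) and 10.4 with TAM (9.56 to 11.3). The pair thus stood furthest apart in the TAM library, and the counting intervals of the 3 ratios did not overlap. An antisense gene, AL133346.1, overlaps CTGF and shares 4.41% of its 50-base stretches. Of the remaining CCN genes, WISP2 had 485, 203 and 338 counts, with a log2 fold change of -1.58 with Rg3 and -0.31 with TAM, while NOV, WISP1 and WISP3 had under 10 counts in each library.

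ANKRD1, a nuclear ankyrin repeat protein and a strongly YAP-dependent gene in many cells, was near the limit of detection in PANC-1. ANKRD1 (ENSG00000148677.6, chr10:90912096-90921276, minus strand) had 12, 42 and 3 counts in the control, Rg3 and TAM libraries. Rg3 stood above control by a log2 fold change of 1.48, with a wide counting interval of 0.53 to 2.54, and 97.9% of genes compared had a lower value. TAM stood below control by -1.79, with an interval of -4.26 to 0.10 that includes 0, so that this difference was not detectable at this depth. Rg3 over TAM was 9.68-fold, with an interval of 3.09 to 48.8. Removal of the trend left 1.09 and -1.77.

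AMOTL2 and LATS2 encode inhibitors of YAP that YAP itself induces, and both stood lowest in the TAM library. AMOTL2 binds YAP at junctions, and LATS2 is the kinase that phosphorylates it. AMOTL2 (ENSG00000114019.14, chr3:134355874-134375479, minus strand) had 1963, 1916 and 543 counts in the control, Rg3 and TAM libraries, and LATS2 (ENSG00000150457.8, chr13:20973032-21061547, minus strand) had 189, 184 and 63. For either gene, the control and Rg3 libraries had nearly equal counts and the TAM library had far fewer. The log2 fold change of AMOTL2 was -0.36 with Rg3 (-0.45 to -0.27) and -1.65 with TAM (-1.79 to -1.51), or 3.13-fold lower. That of LATS2 was -0.37 with Rg3 (-0.67 to -0.06) and -1.38 with TAM (-1.81 to -0.96), or 2.60-fold lower. Genes with the GC content of AMOTL2 (56.7%) tended to be higher with TAM, and with the trend removed AMOTL2 was at -1.75 and LATS2 at -1.23. For Rg3 this removal turned the sign for AMOTL2, to 0.14, and left LATS2 at -0.14. With TAM and the trend removed, 1.58% of genes lay below AMOTL2 and 4.40% below LATS2. The pseudogene RPL39P5, which shares 3.09% of the AMOTL2 stretches, had 3, 15 and 6 counts.

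AXL, a receptor tyrosine kinase whose gene is a YAP target in several carcinomas, stood lowest in the Rg3 library. AXL (ENSG00000167601.11, chr19:41219203-41261766, plus strand) had 3529, 2664 and 3127 counts in the control, Rg3 and TAM libraries. After scaling, control and TAM were alike at 307 and 314 CPM, and Rg3 was lower at 185. Its log2 fold change was -0.73 with Rg3 (-0.81 to -0.66) and 0.03 with TAM (-0.04 to 0.10), the latter being -0.18 with library totals. The Rg3 value was -0.37 with the trend removed and was then within 1.5-fold. AXL and AMOTL2 are alike in length (4737 and 4521 bases) and GC content (53.9% and 56.7%), and AXL had 1.80 reads per AMOTL2 read in the control library (1.70 to 1.90), 1.39 with Rg3 (1.31 to 1.48) and 5.76 with TAM (5.26 to 6.32). The 2 target genes thus stood furthest apart in the TAM library, with counting intervals that did not overlap.

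Of the AXL-related receptors, TYRO3 (881, 668 and 787 counts) had a log2 fold change of -0.73 with Rg3 and stood at 0.04 with TAM. MERTK (273, 533 and 269) was higher with Rg3 (0.64) and stood at 0.18 with TAM. GAS6, the ligand of AXL, had 822, 614 and 514 counts and changes of -0.75 with Rg3 and -0.47 with TAM. PROS1, which encodes a ligand of TYRO3 and MERTK, had 173, 490 and 84, with changes of 1.18 and -0.84. After removal of the trend, MERTK with Rg3 (0.59) and GAS6 with TAM (-0.87) were the values past 1.5-fold.

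AJUBA, a LIM-domain scaffold that binds LATS kinases at junctions and restrains them, stayed within 1.5-fold of control. AJUBA (ENSG00000129474.15, chr14:22971174-22982642, minus strand) had 436, 548 and 455 counts, or 38.0, 38.1 and 45.7 CPM. The 3 libraries lay close together. Its log2 fold change was 0.0032 with Rg3 (-0.18 to 0.19) and 0.27 with TAM (0.08 to 0.46), and the sign of the first rests on the scaling. Exons of AL132780.3, an annotated coding gene on the same strand, overlap AJUBA.

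**Figure D3:**
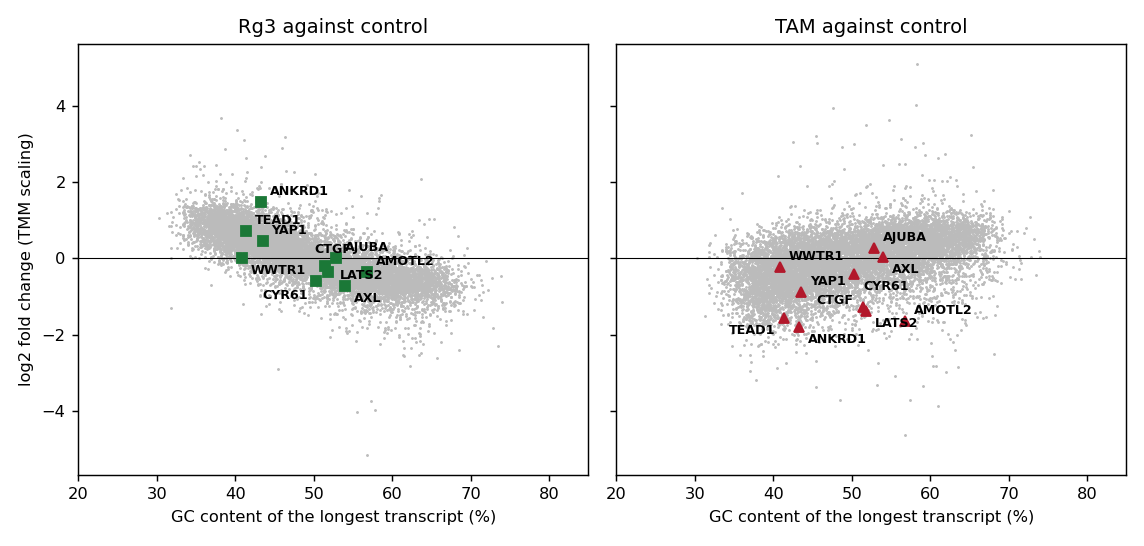
Log2 fold change against the control library (y axis) by GC content of the longest transcript in percent (x axis), with Rg3 (left) and TAM (right). Grey points are genes with at least 50 counts, and the 10 named genes are marked. With Rg3 the marked genes follow the falling band of all genes, ANKRD1 at its upper edge. With TAM, CTGF, LATS2 and AMOTL2, with GC contents of 51.5% to 56.7%, lie toward its lower edge while AXL and AJUBA lie inside it.

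The rest of the pathway was read from lists of other genes, which were picked for their roles. Of the kinase cascade and its activators, 14 genes were listed. With Rg3, 7 of the 14 were higher past 1.5-fold and 0 lower, with a median of 0.59, where 25.0% of all genes compared were higher and 19.3% lower. These were STK3 (0.90), STK4 (0.63), SAV1 (0.84), MOB1A (0.79), MOB1B (1.00), FRMD6 (0.72) and TAOK1 (1.04). With TAM, 7 were lower and 0 higher, with a median of -0.66, against 23.5% and 17.4% of all genes. These were LATS1 (-1.73), MOB1B (-1.72), WWC2 (-1.40), FRMD6 (-0.91), STK4 (-0.81), TAOK1 (-1.75) and TAOK3 (-1.81). Both medians come from comparisons with the same control library. Without the trend, 0 of the 14 were higher with Rg3, and with TAM the 5 still lower were LATS1 (-0.95), MOB1B (-0.88), WWC2 (-0.67), TAOK1 (-0.80) and TAOK3 (-1.50). The medians were then 0.16 with Rg3 and -0.06 with TAM. On that scale 13.6% of all genes lay below WWC2 with TAM. LATS1, the paralogue of LATS2, had 260, 421 and 68 counts. NF2, the tumor suppressor upstream of LATS kinases, had 1142, 1321 and 1179 counts and stayed within 1.5-fold.

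STRIPAK, the PP2A complex that dephosphorylates STK3 and STK4, was listed with 7 subunits. Of these, 5 were higher with Rg3 and 1 lower, with a median of 1.03, and with TAM 1 was higher and 3 were lower (median -0.54). The shares of all genes were 25.0% and 19.3% with Rg3, and 17.4% and 23.5% with TAM. STRN (1.03), STRN3 (1.04), MOB4 (1.12), SLMAP (0.70) and SIKE1 (1.25) were higher with Rg3. STRN4, whose reads were 1346, 1010 and 1755, was the exception, at -0.74 with Rg3 and 0.59 with TAM. With TAM, STRN (-1.20), STRN3 (-0.84) and SLMAP (-0.71) were lower. Once the trend was taken out, 0 of the 7 passed 1.5-fold in either library. The medians were then 0.29 and 0.03.

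Junction and cadherin regulators, 9 genes, had a median of -0.03 with Rg3, where only TJP1 (0.65) passed 1.5-fold, against 25.0% of all genes higher. With TAM the median was -0.56, and 4 of the 9 were lower, against 23.5% of all genes: AMOTL1 (-1.19), the protocadherin FAT1 (-1.25), FAT4 (-1.60) and TJP1 (-1.29). FAT1 had 2432, 3117 and 885 counts. Taking the trend out left AMOTL1 (-0.66), FAT4 (-0.74) and TJP1 (-0.65) lower past 1.5-fold and FAT1 (-0.46) within it, and put WTIP (0.80) higher. Of all genes, 14.0% lay below TJP1 with TAM on that scale. AMOTL1, like AMOTL2 an angiomotin, stood at 397, 439 and 151 counts, and AMOT itself at 42, 71 and 26.

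The other genes of a published YAP/TAZ target signature, 16 in number and without the members named above, gave 15 genes compared, as F3 had under 10 counts in each library. With TAM, 8 of the 15 were lower past 1.5-fold and 1 was higher, with a median of -0.63, against 23.5% and 17.4% of all genes. The lower ones were TGFB2 (-1.53), a TGF-beta ligand, ASAP1 (-1.37), PTPN14 (-1.25), a phosphatase that holds YAP in the cytoplasm, CCDC80 (-1.05), CRIM1, MYOF (-0.83), DOCK5 (-0.76) and ARHGEF17 (-0.63). FJX1 (0.59) was the 1 higher. MYOF and CRIM1 were the most abundant by reads, with 4441, 5079 and 2160 counts and with 3019, 3743 and 1304. With the trend removed the median was -0.18, and the 3 still lower were TGFB2 (-0.93), ASAP1 (-0.83) and CRIM1 (-0.64). On that scale 14.5% of all genes lay below CRIM1, so that 3 of 15 lay near the share of all genes. FJX1 (0.16) then came within 1.5-fold, and NT5E (0.59) passed it as the 1 higher. With Rg3, 0 of the 15 were higher and 3 were lower: IGFBP3 (-1.27), FJX1 (-0.96) and ARHGEF17 (-0.62). This share lay near the 19.3% of all genes that were lower. IGFBP3, an IGF-binding protein with 818, 424 and 888 counts, was also lower with the trend removed (-1.21), and FJX1 (-0.23) and ARHGEF17 (0.10) were not, while RBMS3 (-0.93), with 20, 23 and 13 counts, was newly lower.

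**Figure D4:**
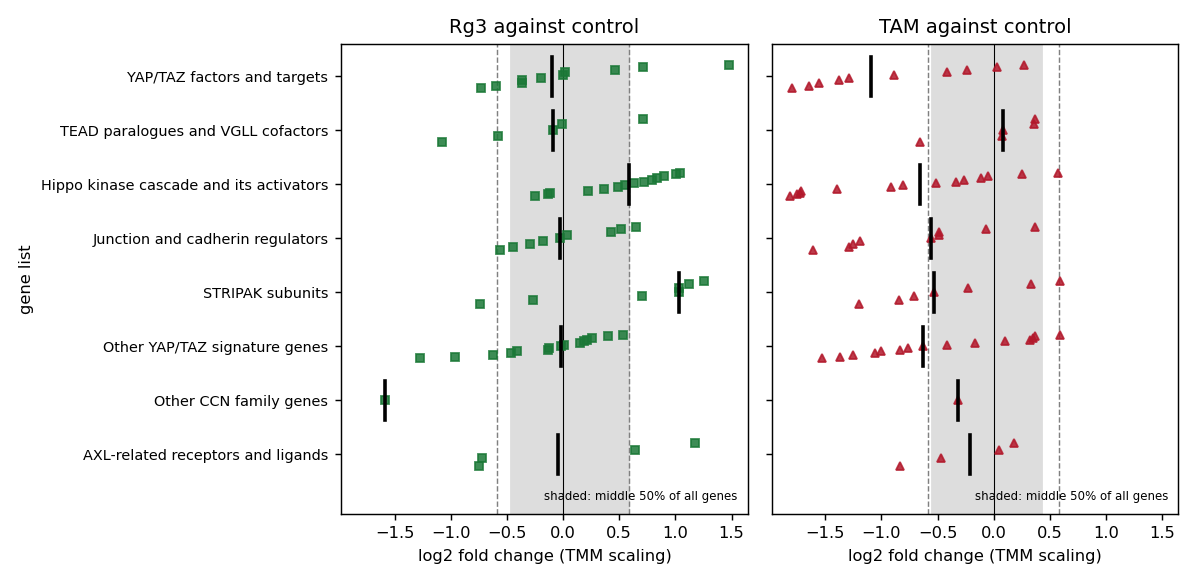
Log2 fold changes (TMM scaling) of the genes of each list with Rg3 (left) and TAM (right), 1 point per gene with at least 10 counts in either library. Black bars are list medians, dashed lines mark 1.5-fold and shading spans the middle 50% of all genes. The median of the 10 YAP/TAZ factors and targets lies at -1.09 with TAM and -0.10 with Rg3, and those of the kinase cascade at -0.66 and 0.59.

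Over the 3 libraries, the genes nearest to CTGF in their pair of log2 fold changes, among 9765 genes with at least 100 control counts, were RNF213 (-0.21 with Rg3 and -1.26 with TAM), VCL (-0.17 and -1.25), F2R (-0.27 and -1.32), PDE4B (-0.24 and -1.21) and CREB3L2 (-0.25 and -1.21). Nearest to CYR61 were SLC35E2 (-0.57 and -0.41), SCARB1 (-0.62 and -0.40), NHSL1 (-0.59 and -0.44), HDAC5 (-0.57 and -0.39) and ARHGAP17 (-0.56 and -0.44). The Euclidean distances were 0.02 to 0.09 for CTGF and 0.02 to 0.04 for CYR61, a likeness over 3 libraries that share 1 control.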

How the data were processed

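RNA-seq of PANC-1 cells was available as 1 library each from control, Rg3 and TAM cells. Per the methods and labels, total RNA was sequenced on the Ion Proton, reads were checked with FAST-QC, aligned with TopHat and assembled with MAQ, and GRCh38 is the build in the submitters' processing notes. The authors deposited raw read counts per gene symbol. The counting tool, annotation and use of strand are not given in the sources used here. From the deposited counts, TMM factors (1.02, 1.12 and 0.879 for control, Rg3 and TAM) were computed with edgeR 4.0.16 in R 4.3.3, and ratios in Python 3.11.15. A gene entered a comparison if at least 1 of its libraries held 10 counts, and any count below 3 was set to 3 before division. A gene was called at a fold of 1.5 or its exact inverse, near the methods' limits of 1.5 and 0.67; of the genes named, only TEAD3 with Rg3 lies between the exact inverse and 0.67. The Limma test of the methods needs replicates and was not used. A smooth trend (loess, span 0.3, fitted on genes with at least 50 counts) on GC content and length of the longest GENCODE 29 transcript was removed as an alternative, for the 88.0% and 88.5% of genes compared with Rg3 and TAM that have both values. Positions are those of GENCODE 29 (GRCh38), matched by symbol. Ratios were run on simulated Poisson counts without spread between cultures, and trend removal on a simulated linear trend. These runs check the calculation and cannot show how well it suits these libraries. Members and lists were chosen with earlier results of these data known. Genes named from the lists were those past 1.5-fold in a treated library with at least 50 counts there or in control, with a few others given for context after their values were seen, and the 5 genes nearest to CTGF and CYR61. Other alternatives were library totals, DESeq2 1.42.0 size factors, upper quartile factors, minimums of 1 and 50 counts, a fold of 2, and a fold with an interval that leaves out 0.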

Additional observations from a re-analysis of the deposited data

How the results depend on the processing

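No paired analysis was possible because each group has 1 library, and no replicate could be left out. In the TAM comparison with control, 5 to 7 of the 10 genes were lower and 0 higher under each of the 8 alternatives, and the median log2 fold change was -1.30 with library totals. ANKRD1 was not compared at the minimum of 50 counts. The share of all genes past the limit was not computed under the alternatives, so these counts stand without it. With Rg3 against control, 1 gene was higher with upper quartile factors, with at least 50 counts and with a fold of 2. The fold of 2 left 0 lower, and upper quartile factors and at least 50 counts each left 2 lower. Library totals gave 3 higher, YAP1 (0.60) being added, with 1 lower and a median of 0.042, and removal of the GC and length trend left 1 higher, 0 lower and a median of 0.0299. With Rg3 against TAM, 0 genes were lower with library totals or a fold of 2, and the median was 1.40 with library totals and 0.75 with the trend removed. DESeq2's size factors left each of the 30 single values of the 10 genes within its counting interval. Library totals and removal of the trend each moved 21 of the 30 beyond it, and upper quartile factors moved 17. The cause was not tested. Depth limits ANKRD1 and VGLL3, and the spread between cultures could not be estimated.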
